A study of Nannochloropsis oceanica with 6 samples.

Results

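Blue and red pulses of equal photon flux were compared in Nannochloropsis oceanica CCMP1779, a small unicellular marine alga of the stramenopile lineage that stores oil and makes eicosapentaenoic acid. The comparison used the 2 libraries of cells that had received blue light against the 2 libraries of cells that had received red light, 4 of the 6 libraries of the series. All cells, grown at 22 °C in 12 h of light at 30 µmol s−1 m−2 and 12 h of dark, were moved to darkness at the end of a light period (zeitgeber time 12 h) and stayed there for 36 h. The pulse then lasted 5 min at 20 µmol s−1 m−2 in either colour, and 15 min of darkness followed before harvest. The 2 dark libraries, from cells that got no pulse and were harvested at the same time, gave a reference level and entered the fit for the estimate of the spread. Of 10641 gene models in the table, the 9087 with a mean of at least 1 FPKM (fragments scaled to transcript length and library size) over the 6 libraries were tested.

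Blue light is absorbed by flavin-binding receptors. In stramenopiles these include the aureochromes, which carry a DNA-binding bZIP domain and a light-sensing LOV domain in 1 protein, and the cryptochromes, relatives of the DNA-repairing photolyases. Chlorophyll absorbs both colours, so photosynthesis is driven by either pulse, and in Nannochloropsis the antenna binds chlorophyll a and violaxanthin. Desaturases and elongases of fatty acids make the long polyunsaturated chains for which the alga is grown.

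The FPKM values of a library summed to 624861 and 662229 in blue libraries and to 588092 and 615972 in red libraries, against 767193 and 767747 in dark libraries. The median absolute log2 difference was 0.143 between the blue replicates, 0.112 between the red replicates and 0.305 between the blue and red means. The labels number the replicates but name no separate cultures, so the spread behind each p-value may be technical. Fewer cells and less RNA per cell cannot be told apart in bulk libraries. Differences are given as blue minus red on the log2(FPKM + 1) scale, which understates changes of low models. A model was called at an adjusted p under 0.05 (limma, Benjamini-Hochberg over all 9087 models, two-sided).

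Many models differed between the colours, and differences of at least 8-fold lay mainly on the side of blue light. In all, 4606 models were called (50.7%), 2453 of them higher in blue (27.0%) and 2153 higher in red (23.7%). At least 2-fold differences were called in 528 models higher in blue (5.81%) and in 351 higher in red (3.86%), and at least 8-fold differences in 59 and 4. The balance at 2-fold depended on the scaling, with 492 models higher in blue and 492 in red on TPM, 490 and 439 after quantile normalization, and 458 and 473 after median centring. At 8-fold it did not: the counts were 58 and 5, 58 and 4, and 53 and 4. The 4 models at least 8-fold higher in red all overlapped another model, while 36 of the 59 higher in blue overlapped none. The split of all calls depended on the scaling too: 53.3% of the called models were higher in blue on FPKM, 42.6% on TPM, 44.7% after quantile normalization and 40.9% after median centring, which moved the median difference of all models from 0.03 to −0.07. Every model at least 2-fold different on FPKM was called the same way under all 4 scalings. A robust call below is one made the same way under all 4, which held for 1875 models higher in blue and 2115 higher in red.

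**Figure D1:**
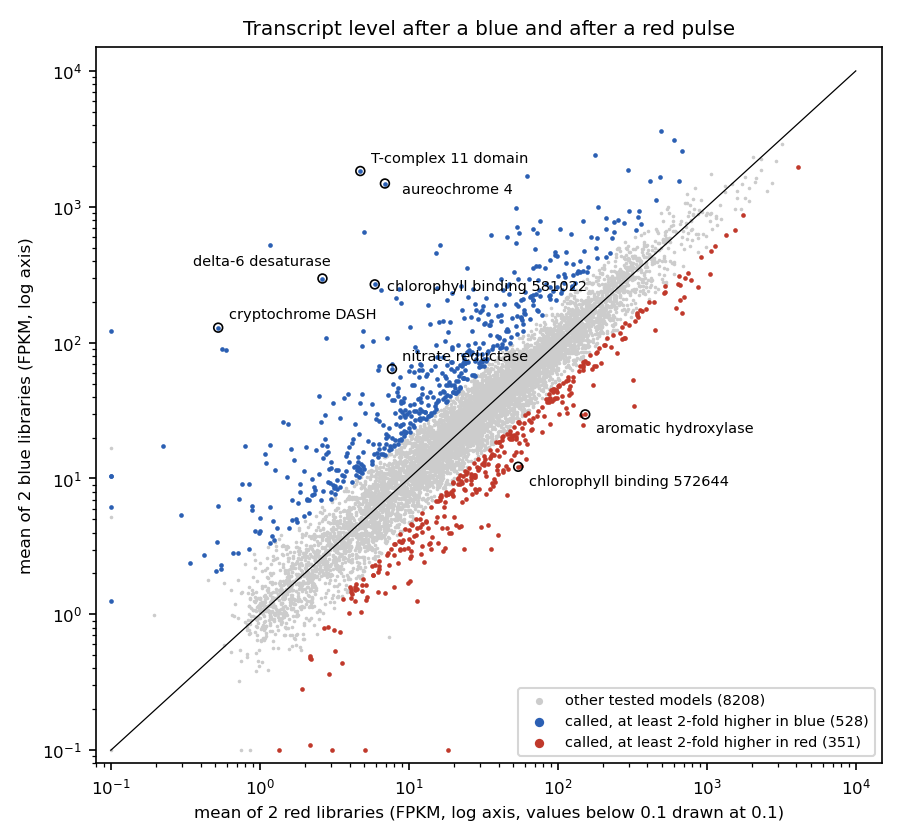
Mean level of each tested model in red (horizontal) and blue (vertical) libraries in FPKM on log axes, with values below 0.1 drawn at 0.1, models called at least 2-fold higher in blue (528) or in red (351) in colour, and some of the models named in the text labelled. The points farthest from the diagonal lie above it.

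To find models that did not depend on colour, a 95% confidence interval lying wholly within 0.5 log2 of 0 was required. It did so in 3744 models (41.2%), and in 2978 of them under all 4 scalings. Of the 3744, 328 were also called, with small differences. A further 1065 models were neither called nor within the interval, so for them neither a difference nor its absence was shown. The precision depended on the level: the interval held 28.5% of models with a mean of 1 to 5 FPKM, where the median SE was 0.151, and 51.1% of those with 50 to 150 FPKM, where it was 0.0909.

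Among the photoreceptors, aureochrome 4 and cryptochrome DASH were high after blue light and near the dark level after red light. All 7 members of the list were called, against 50.7% of all models. Of the 7, 4 were higher in blue and 3 higher in red, and all 7 calls were robust. The median difference of the list was 0.51, against 0.03 over all tested models. Aureochrome 4 (model 622551, scaffold 3:1242681-1243694, minus strand) was listed at 1298 and 1669 FPKM in blue, 5.80 and 8.03 FPKM in red, and 4.81 and 5.13 FPKM in dark libraries. The groups did not come near each other, with a ratio of the blue and red means of 215 and a log2 difference of 7.55 (SE 0.15, adjusted p = 5.36e-09, limma). Cryptochrome DASH (622582, scaffold 4:228551-230376, plus strand), of a subfamily known elsewhere for repair of single-stranded DNA, stood at 113 and 145 FPKM in blue, 0.515 and 0.536 FPKM in red, and 1.03 and 0.762 FPKM in dark. Its log2 difference was 6.40 (SE 0.14, adjusted p = 8.10e-09, limma), and the model overlaps another on the same strand, so the counting could have split reads between them.

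The other photolyase relatives differed far less. A photolyase/cryptochrome (571816, scaffold 1:343524-346033) was at 52.0 and 64.4 FPKM in blue, 24.4 and 28.6 FPKM in red, and 14.3 and 14.8 FPKM in dark, a difference of 1.10 (SE 0.12, adjusted p = 7.67e-05, limma). A photolyase (529956, scaffold 14:492572-494344), a class of enzymes that repair ultraviolet damage with light, was at 20.4 and 23.0 FPKM in blue, 15.0 and 14.9 FPKM in red, and 9.18 and 8.69 FPKM in dark, a difference of 0.51 (SE 0.10, adjusted p = 0.00249, limma). For both, the 3 groups were ordered blue, red, dark with no overlap of libraries.

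Aureochrome 1, aureochrome 3 and a rhodopsin-like protein lay on the other side. The rhodopsin-like model (606484, scaffold 35:151897-155029), of a family of retinal-binding light-driven pumps and sensors, was at 56.9 and 55.7 FPKM in blue, 119 and 133 FPKM in red, and 142 and 137 FPKM in dark. Red and dark libraries lay close together and blue libraries stood below both, with a difference of −1.14 (SE 0.08, adjusted p = 6.72e-06, limma). Aureochrome 1 (550823, scaffold 3:486593-489076) was at 270 and 264 FPKM in blue, 407 and 436 FPKM in red, and 811 and 763 FPKM in dark, a difference of −0.66 (SE 0.09, adjusted p = 2.29e-04, limma). Aureochrome 3 (582424, overlapped on the opposite strand) was at 424 and 446 FPKM in blue, 500 and 538 FPKM in red, and 778 and 725 FPKM in dark, and its difference of −0.25 (95% interval −0.46 to −0.05, adjusted p = 0.0402, limma) was within the interval of 0.5. That call was lost with no filter on low values, with no trend in the variance, when only blue and red libraries were fitted, and without blue replicate 1, red replicate 2 or either dark library. The 3 aureochromes thus lay on both sides of the comparison, with aureochrome 4 higher in blue and the others lower.

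**Figure D2:**
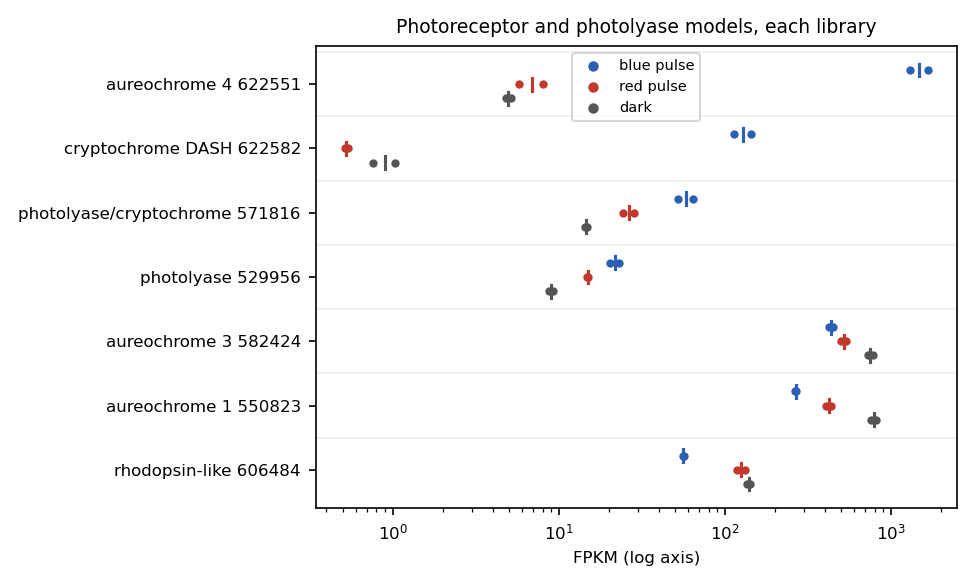
FPKM of the 7 photoreceptor models in each blue, red and dark library on a log axis, 1 point per library. Aureochrome 4 and cryptochrome DASH are high in blue libraries and low in red and dark libraries, and the rhodopsin-like model and aureochromes 1 and 3 are lowest in blue libraries.

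A wider list held 21 proteins with PAS, response regulator or CCT domains and casein kinases, the 3 aureochromes among them. Of the 21, 4 were higher in blue (19.0%) and 10 higher in red (47.6%), against 27.0% and 23.7% of all models. The median was −0.11. The count higher in red fell to 5 without red replicate 1, to 4 without red replicate 2 and to 6 without either dark library. Beyond aureochrome 4, a cyclic nucleotide-binding protein described as related to ERG potassium channels (585970) was at 31.1 and 33.8 FPKM in blue, 14.5 and 16.1 FPKM in red, and 3.94 and 3.60 FPKM in dark (difference 1.04, adjusted p = 4.67e-05, limma).

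Desaturation of fatty acids had the largest median difference of the 34 lists with members. Of 15 tested desaturases, 11 were higher in blue (73.3%) and 2 higher in red (13.3%), against 27.0% and 23.7% of all models. All these calls were robust, and the list's median was 2.33. At least 2-fold differences were called in 10 members higher in blue and in 1 higher in red. The strongest was a fatty acid desaturase (591536, scaffold 12:574185-576441, overlapped on the same strand) at 569 and 741 FPKM in blue, 4.65 and 5.42 FPKM in red, and 1.62 and 2.02 FPKM in dark (difference 6.75, SE 0.14, adjusted p = 5.36e-09, limma). Delta-6 desaturase (606752, scaffold 36:129116-132803, overlapped on the opposite strand), which puts a double bond into the chain at the front-end position used on the way to eicosapentaenoic acid, was at 261 and 332 FPKM in blue, 2.65 and 2.61 FPKM in red, and 1.44 and 1.25 FPKM in dark (difference 6.35, SE 0.13). Model 639463 (scaffold 11:762889-765767), which overlaps no other, was at 479 and 559 FPKM in blue, 16.9 and 15.5 FPKM in red, and 3.97 and 3.89 FPKM in dark (difference 4.92, SE 0.10, adjusted p = 5.36e-09, limma). In each of these 3 the lowest blue library was far above the highest red library.

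Several desaturases stood between the dark and blue levels after red light. Stearoyl-CoA desaturase (593563), which makes the first double bond of a saturated chain, stood at 739 and 840 FPKM in blue, 72.3 and 80.8 FPKM in red, and 52.6 and 47.6 FPKM in dark (difference 3.35). A delta-6-type desaturase (593992) and a cytochrome b5 domain model that directly abuts it (593993) differed by 3.53 and 3.67, and such abutting models may be parts of 1 gene. The rest of the members higher in blue differed by between 0.53 (522533, a type 2 desaturase at 839 and 872 FPKM in blue, 525 and 669 FPKM in red, and 908 and 873 FPKM in dark) and 2.70 (602818). The exceptions were few. Model 392284 (scaffold 7:406120-407916, overlapped on the opposite strand) was at 487 and 462 FPKM in blue, 973 and 1170 FPKM in red, and 1144 and 1083 FPKM in dark, a difference of −1.17 (SE 0.11, adjusted p = 2.73e-05, limma). Model 569710, at under 6 FPKM in every library, differed by −0.44. Models 243528 (−0.18, overlapped on the opposite strand) and 580470 (−0.07, overlapped on the same strand) were within the interval, and 580470, at 161 and 172 FPKM in blue and 172 and 177 FPKM in red, was at 426 and 408 FPKM in dark.

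Elongases, which add carbon pairs to the chain, were divided: 5 of 11 were higher in blue (45.5%) and 4 higher in red (36.4%). The shares of all models were 27.0% and 23.7%. The median was −0.11, and after median centring the counts were 4 and 5. Elongase 391778 (scaffold 7:363229-365352) was at 477 and 508 FPKM in blue, 63.5 and 77.8 FPKM in red, and 20.5 and 20.9 FPKM in dark (difference 2.79, SE 0.10, adjusted p = 9.69e-08, limma). Elongase 601925, overlapped on the same strand, differed by 2.46, with its red libraries (5.80 and 5.47 FPKM) below its dark libraries (11.5 and 11.4 FPKM). Elongase 556704 was higher in red, at 5.67 and 6.57 FPKM in blue against 13.8 and 14.1 FPKM in red (difference −1.08, SE 0.10, adjusted p = 3.27e-05, limma).

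**Figure D3:**
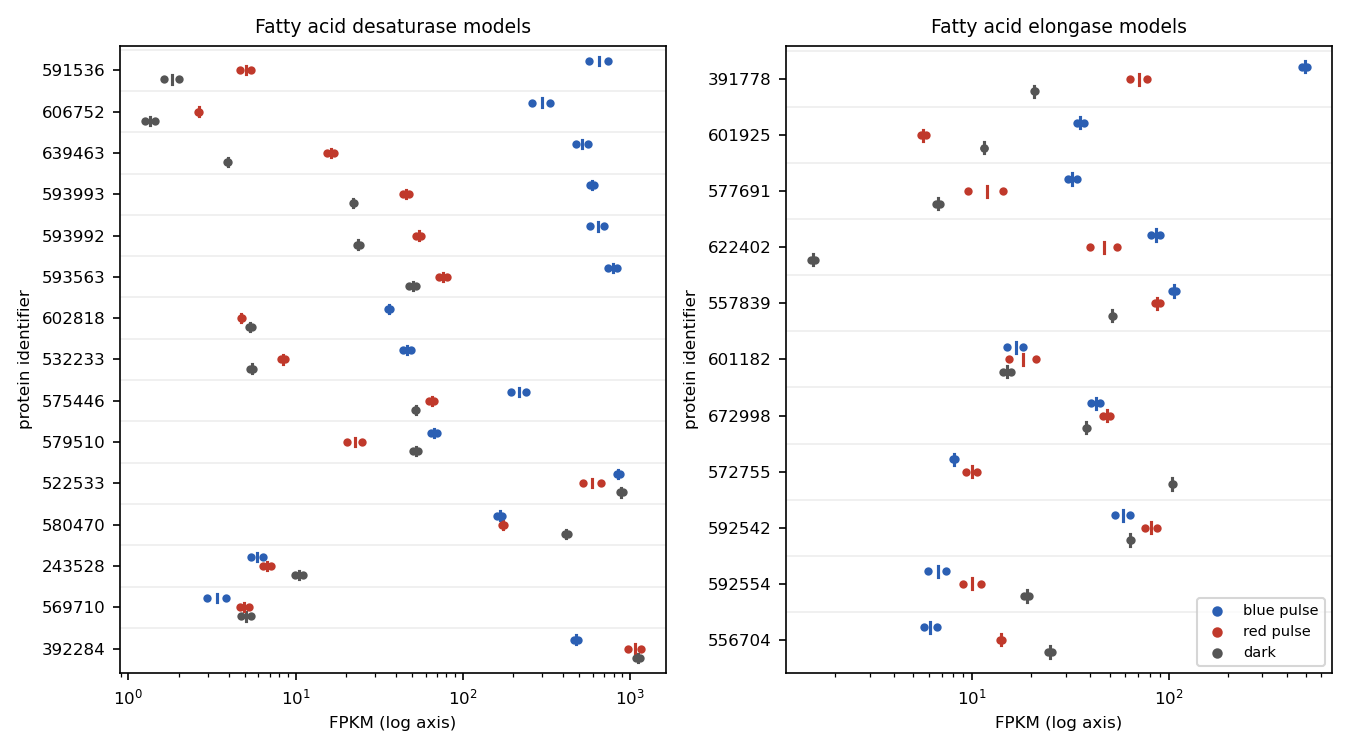
FPKM of the 15 fatty acid desaturases (left) and 11 elongases (right) in each blue, red and dark library on a log axis, 1 point per library with a bar at the mean, ordered by the blue minus red difference. In the upper desaturases the blue libraries lie far to the right of red and dark libraries, and in 392284, the lowest, they lie to the left.

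Across the 81 models of fatty acid synthesis and glycerolipid assembly, 34 were higher in blue (42.0%) and 26 higher in red (32.1%), with a median of 0.10. Of all models 27.0% and 23.7% were. After median centring the counts of the list were 30 and 30. Those of lowest p were a model predicted as a diacylglycerol kinase (63610), at 645 and 738 FPKM in blue, 65.3 and 71.6 FPKM in red, and 87.1 and 88.5 FPKM in dark, and the lipid droplet surface protein (591558), the main coat protein of oil droplets in Nannochloropsis, at 616 and 654 FPKM in blue, 130.0 and 116 FPKM in red, and 93.6 and 92.2 FPKM in dark. Their differences were 3.31 (adjusted p = 2.18e-08, limma) and 2.36 (adjusted p = 9.08e-08, limma), the second overlapped on the opposite strand. A beta-ketoacyl synthase (606651, overlapped on the same strand), of the enzyme class that condenses growing fatty acids, differed by 2.50. Acetyl-CoA synthetase (604689), which activates acetate, was higher in red, at 17.9 and 18.3 FPKM in blue against 54.2 and 55.5 FPKM in red and 48.1 and 48.6 FPKM in dark (difference −1.55, adjusted p = 7.10e-07, limma). Lipases and beta-oxidation, the breakdown side, held 16 of 96 members higher in blue (16.7%) and 33 higher in red (34.4%), with a median of −0.12. Of these calls 11 and 31 were robust, so the larger count in red did not rest on the scaling. Without red replicate 1, 9 members were called higher in blue. Examples with opposite directions are a long-chain acyl-CoA synthetase (652449, 73.9 and 78.3 FPKM in blue, 29.2 and 27.3 FPKM in red, difference 1.40) and a mitochondrial hydroxyacyl-CoA dehydrogenase (597644, 10.3 and 11.1 FPKM in blue, 29.2 and 26.5 FPKM in red, difference −1.30, overlapped on the opposite strand).

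Light harvesting proteins went mostly the other way from desaturases. Of 26 tested members, 16 were higher in red (61.5%) and 4 higher in blue (15.4%), against 23.7% and 27.0% of all models. All these calls were robust, and the median was −0.41. Under each of the other 3 scalings 19 were higher in red, and without red replicate 2 the count was 10. The differences towards red were modest: 5 of the 16 reached 2-fold, the largest being 572644 (scaffold 1:913872-914740) at 10.5 and 13.9 FPKM in blue, 53.0 and 55.4 FPKM in red, and 17.7 and 19.9 FPKM in dark (difference −2.08, SE 0.13, adjusted p = 2.05e-06, limma). For this model, as for 572716 and 574033, blue libraries were nearer to dark than red libraries were. Model 572716 was at 46.6 and 53.6 FPKM in blue, 105 and 112 FPKM in red, and 36.9 and 41.6 FPKM in dark, and 574033 at 95.9 and 97.2 FPKM in blue, 198 and 210 FPKM in red, and 81.9 and 97.9 FPKM in dark. In the others that reached 2-fold, red libraries were nearer to dark. Model 643295 was at 32.2 and 35.2 FPKM in blue, 78.3 and 77.2 FPKM in red, and 82.3 and 88.0 FPKM in dark. Model 594375, overlapped on the same strand, was at 8.13 and 10.6 FPKM in blue, 20.1 and 19.5 FPKM in red, and 15.1 and 16.1 FPKM in dark. Both orders also occurred among members below 2-fold, with red nearer to dark in 600924 and blue in 613502.

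The 2 members that differed most towards blue were each a case of its own. Model 581022 (scaffold 5:826821-828775) was at 245 and 292 FPKM in blue, 5.70 and 6.11 FPKM in red, and 14.6 and 14.1 FPKM in dark (difference 5.28, SE 0.10, adjusted p = 5.36e-09, limma), so that red libraries lay below dark. Model 262299, overlapped on the same strand, was at 2448 and 2732 FPKM in blue, 690.2 and 669 FPKM in red, and 400.5 and 371 FPKM in dark (difference 1.93, SE 0.10, adjusted p = 6.26e-07, limma). The abundant members 575683 (overlapped on the same strand, 1497 and 1825 FPKM in blue, 1758 and 1839 FPKM in red) and 591694 (470 and 532 FPKM in blue, 476 and 511 FPKM in red) had blue and red libraries that overlapped in level. Both were within the interval, with differences of −0.12 and 0.02, and both stood higher in dark, at 2666 and 2825 FPKM and at 929 and 944 FPKM. Light harvesting proteins are a family of similar sequences, so reads may have been shared between members.

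Photosystem and electron transport proteins encoded in the nucleus, ferredoxin-related models among them, changed less than light harvesting proteins. Of 18, 7 were higher in blue (38.9%), 2 higher in red (11.1%) and 8 within the interval (44.4%), with a median of 0.20. The shares of all models were 27.0%, 23.7% and 41.2%, so the share within the interval was near that of all models. Of light harvesting proteins 11.5% were within the interval. A PsbQ-like protein (588861), of a family attached to the oxygen-evolving side of photosystem II, was at 138 and 208 FPKM in blue, 22.5 and 23.3 FPKM in red, and 17.96 and 19.3 FPKM in dark (difference 2.83, adjusted p = 1.25e-06, limma). A Psp29-type thylakoid formation protein (356280) was at 1195 and 1300 FPKM in blue, 650 and 819 FPKM in red, and 1096 and 1062 FPKM in dark (difference 0.77). PsbM (609192), a small photosystem II subunit, was at 161 and 186 FPKM in blue, 264 and 273 FPKM in red, and 217 and 217 FPKM in dark (difference −0.63, adjusted p = 4.31e-04, limma). No model matched the list of organelle-encoded genes, which rests on descriptions alone, so no subunit was identified here as encoded in the chloroplast.

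Of 15 models of chlorophyll and haem synthesis, 5 were higher in blue (33.3%), 3 higher in red (20.0%) and 6 within the interval, against 27.0%, 23.7% and 41.2% of all models. These shares lie near those of all models, and the median was 0.02. Single members differed. Ferrochelatase (525239, overlapped on the opposite strand), which puts iron into haem, was at 365 and 431 FPKM in blue, 124 and 160 FPKM in red, and 112 and 106 FPKM in dark (difference 1.49). Glutamyl-tRNA reductase (589090), the first committed step of the pathway, was at 262 and 288 FPKM in blue, 160 and 183 FPKM in red, and 75.3 and 77.0 FPKM in dark (difference 0.68). Porphobilinogen deaminase (574904), which joins porphobilinogen units into the tetrapyrrole, had the reverse order, at 99.9 and 87.1 FPKM in blue, 147 and 172 FPKM in red, and 51.7 and 53.5 FPKM in dark (difference −0.77).

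Carotenoid and isoprenoid synthesis stood more on the blue side, with 13 of 28 members higher in blue (46.4%), 6 higher in red (21.4%) and a median of 0.17. The shares of all models were 27.0% and 23.7%. On TPM the counts were 12 and 8, and after median centring the median was 0.06. Phytoene desaturase (593703), the enzyme that begins to colour phytoene on the way to lycopene, was at 341 and 363 FPKM in blue, 65.7 and 71.1 FPKM in red, and 40.2 and 39.97 FPKM in dark (difference 2.35, SE 0.08, adjusted p = 7.81e-08, limma). Another model described as phytoene desaturase (572020, overlapped on the opposite strand) was at 36.9 and 36.8 FPKM in blue, 41.2 and 45.4 FPKM in red, and 20.8 and 19.1 FPKM in dark. A carotenoid oxygenase (228120), of a family that cleaves carotenoids, differed by 1.68, at 110 and 117 FPKM in blue against 37.1 and 32.6 FPKM in red. A terpenoid cyclase/prenyltransferase (674559) was higher in red, at 85.5 and 83.9 FPKM in blue, 183 and 185 FPKM in red, and 160 and 161 FPKM in dark (difference −1.11).

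Carbon metabolism leaned to blue light. Of 16 Calvin cycle and carbon fixation models, 8 were higher in blue and 4 higher in red, with a median of 0.28, and 4 members reached 2-fold, all towards blue. Phosphoribulokinase (604976), which makes the acceptor of carbon dioxide, was at 211 and 234 FPKM in blue, 65.4 and 70.6 FPKM in red, and 54.6 and 58.9 FPKM in dark (difference 1.70, adjusted p = 8.36e-07, limma). Sedoheptulose-bisphosphatase (671242, overlapped on the opposite strand) was at 760.0 and 844 FPKM in blue, 239.5 and 268 FPKM in red, and 124 and 129 FPKM in dark (difference 1.66). Both enzymes act in regeneration of ribulose bisphosphate, as does ribulose-phosphate epimerase (591692, difference 1.68). A fructose-bisphosphatase (586050, overlapped on the same strand) was at 4.46 and 4.74 FPKM in blue against 8.16 and 8.97 FPKM in red (difference −0.77).

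**Figure D4:**
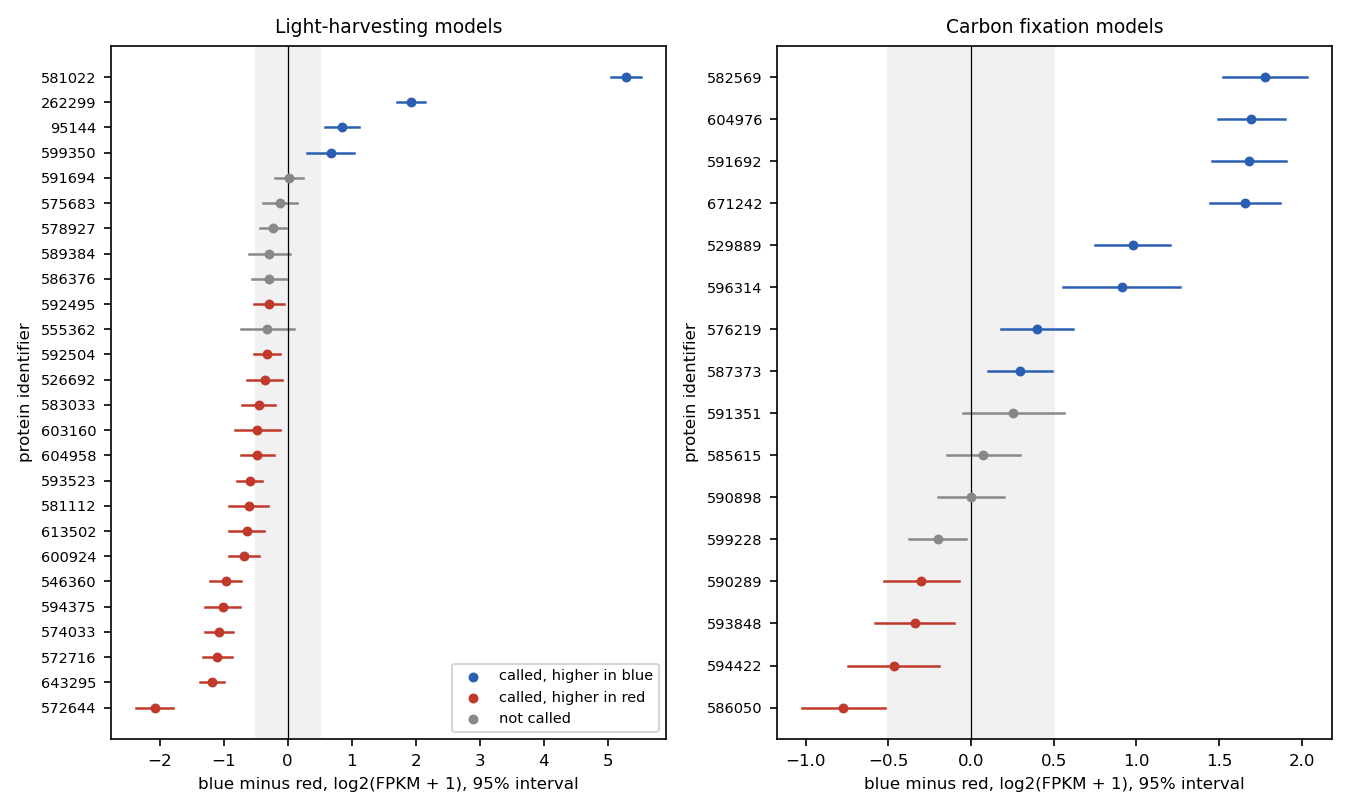
Blue minus red difference in log2(FPKM + 1) of each tested light harvesting (left, 26 models) and Calvin cycle or carbon fixation model (right, 16 models), with its 95% interval; the shaded band is 0.5 log2 to each side of 0, and colour marks the call. Light harvesting models lie mostly below 0, with 581022 and 262299 far above it, while the 4 carbon fixation models that reached 2-fold all lie above 0.

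Glycolysis had 20 of 34 members higher in blue (58.8%) and 4 higher in red (11.8%), against 27.0% and 23.7% of all models. The median was 0.44, and 11 members were at least 2-fold higher in blue and 0 in red. Pyruvate kinase (615861), the last step, was at 114 and 127 FPKM in blue, 18.7 and 18.01 FPKM in red, and 13.8 and 14.2 FPKM in dark (difference 2.65, adjusted p = 6.63e-08, limma). The NADP-dependent glyceraldehyde-3-phosphate dehydrogenase (577556) was at 3064 and 3104 FPKM in blue, 561 and 645 FPKM in red, and 657 and 681 FPKM in dark (difference 2.36). Phosphoglycerate kinase (543791), which works in the same stretch of the pathway, differed by 2.15 and was at 81.5 and 97.9 FPKM in blue, 18.7 and 20.0 FPKM in red, and 2.53 and 2.55 FPKM in dark. Phosphoglucomutase (586708), at the entry from storage sugars, was at 98.8 and 103 FPKM in blue and 155 and 165 FPKM in red (difference −0.66). A subunit of pyruvate dehydrogenase E1 (585644), whose description names no compartment, was at 224 and 248 FPKM in blue and 57.1 and 63.6 FPKM in red (difference 1.95). Pyruvate dehydrogenase kinase (572138), of a class that inactivates pyruvate dehydrogenase, had the reverse order, at 66.2 and 68.7 FPKM in blue, 175 and 187 FPKM in red, and 265 and 269 FPKM in dark (difference −1.41, adjusted p = 1.15e-06, limma). Whether it acts on the product of 585644 was not tested. The list of respiration had 39 of 128 members higher in blue (30.5%) and 26 higher in red (20.3%), near the shares of all models. Its median was 0.13, and after median centring the counts were 29 and 30. Cytochrome c (606831), the mobile electron carrier, was at 452 and 479 FPKM in blue, 97.6 and 95.1 FPKM in red, and 17.2 and 18.5 FPKM in dark (difference 2.26). Of 55 mitochondrial carriers, 14 were at least 2-fold higher in blue and 1 in red. In all, 21 were higher in blue (38.2%) and 10 higher in red (18.2%), against 27.0% and 23.7% of all models, and 19 and 9 were robust. The balance depended on the scaling, with counts of 19 and 17 on TPM and after median centring, and 21 and 16 after quantile normalization. The extreme members were 588372, at 76.9 and 104 FPKM in blue and at 0.553 and 0.563 FPKM in red (difference 5.86), and 594452, at 171 and 187 FPKM in blue, 605 and 647 FPKM in red, and 1411 and 1354 FPKM in dark (difference −1.80).

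Nitrogen assimilation followed the blue side as well. Of 16 members, 11 were higher in blue (68.8%) and 1 higher in red (6.25%), against 27.0% and 23.7% of all models. The median was 0.39, and 8 of the calls towards blue were robust. Without red replicate 1, 7 were called higher in blue. Nitrate reductase (590448, scaffold 11:666534-670736), the entry enzyme, was at 63.8 and 64.3 FPKM in blue, 6.78 and 8.64 FPKM in red, and 0.807 and 0.661 FPKM in dark (difference 2.91, SE 0.13, adjusted p = 2.58e-07, limma). A nitrite/sulphite reductase (600410) was at 285 and 258 FPKM in blue, 77.5 and 89.5 FPKM in red, and 12.8 and 13.4 FPKM in dark (difference 1.69). For both, red libraries stood between dark and blue. Glutamate ammonia ligase (581084), which fixes ammonium into glutamine, differed by 0.81, and the 2 nitrite transporters of the NAR1 type by 0.79 (574191) and 0.38 (580910). The ammonium transporters 588441 (0.14) and 557399 (−0.16) were not called. Glutamate dehydrogenase (593231), which can also release ammonium, was the member higher in red, at 30.1 and 28.2 FPKM in blue, 59.2 and 57.9 FPKM in red, and 52.6 and 55.8 FPKM in dark (difference −0.98, adjusted p = 1.53e-05, limma).

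Many tRNA synthetases, translation factors and ribosome biogenesis models were higher in blue by small steps. Of tRNA synthetases and translation factors 53.2% were higher in blue and 7.8% higher in red, and of ribosome biogenesis models 57.8% and 4.59%. Of all models 27.0% and 23.7% were. Of 141 tRNA synthetases and translation factors, 75 were higher in blue and 11 higher in red, with a median of 0.33, and 67 and 11 of these calls were robust, while 6 were higher in red without red replicate 1. Of 109 ribosome biogenesis models, 63 were higher in blue and 5 higher in red, with a median of 0.45, and 55 and 5 were robust. Of 115 cytosolic ribosomal proteins, 37 were higher in blue (32.2%) and 1 higher in red (0.87%), with a median of 0.26. The share higher in blue was near that of all models, and the share higher in red was below that of all models. After median centring the counts were 26 and 2. There were 59 within the interval of 0.5, and 24 of the 37 were robust. That count rested on single libraries: 20 ribosomal proteins were higher in blue without red replicate 1, 24 without blue replicate 2 and 78 without blue replicate 1, and 28 to 30 were within the interval without blue replicate 1 or red replicate 2. The members with large differences were few. An elongation factor-type GTP-binding protein (572801) was at 970.3 and 981 FPKM in blue, 46.7 and 58.6 FPKM in red, and 7.96 and 7.22 FPKM in dark (difference 4.19, SE 0.11, adjusted p = 1.81e-08, limma). A Urb2/Npa2 family protein (577545, overlapped on the same strand), known in yeast for maturation of the large ribosomal subunit, was at 191 and 221 FPKM in blue, 17.2 and 19.1 FPKM in red, and 9.62 and 9.66 FPKM in dark (difference 3.43). Ribosomal proteins themselves reached 2-fold in 3 members. The exceptions include a model with the MA3 domain of initiation factor eIF4G (594292), at 108 and 107 FPKM in blue, 261 and 292 FPKM in red, and 458 and 478 FPKM in dark (difference −1.35), and the rRNA-processing Utp23-like protein (130052, overlapped on the same strand), at 1.38 and 0.713 FPKM in blue, 5.29 and 4.33 FPKM in red, and 37.3 and 32.6 FPKM in dark (difference −1.52).

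Regulators had shares near those of all models. Of 300 protein kinases and phosphatases, 79 were higher in blue and 79 higher in red (26.3% each), and of 108 transcription factors 31 (28.7%) and 26 (24.1%), against 27.0% and 23.7% of all models. On TPM the counts were 63 and 100 for kinases and phosphatases, 25 and 31 for transcription factors, and 1970 and 2656 for all models. A homeodomain-like model (604329) was at 220 and 289 FPKM in blue, 14.03 and 16.7 FPKM in red, and 13.3 and 15.7 FPKM in dark (difference 3.95, adjusted p = 9.08e-08, limma), and a protein kinase (552672) at 562 and 722 FPKM in blue and 69.9 and 74.9 FPKM in red (difference 3.12). Among kinases higher in red, 674165, described as of the mitogen-activated type, was at 9.86 and 8.57 FPKM in blue, 37.8 and 34.3 FPKM in red, and 54.7 and 53.7 FPKM in dark (difference −1.86). Of 124 cell cycle models, 24 were higher in blue (19.4%) and 27 higher in red (21.8%). The cyclin-like models 198387 (212 and 218 FPKM in blue, 23.7 and 26.2 FPKM in red) and 667623 (306 and 285 FPKM in blue, 41.4 and 42.1 FPKM in red), of families that activate cyclin-dependent kinases, differed by 3.06 and 2.79. A condensin subunit (555972), which compacts chromosomes, was at 9.26 and 7.52 FPKM in blue, 37.2 and 32.9 FPKM in red, and 77.4 and 76.1 FPKM in dark (difference −1.94). Of 183 chromatin models, 44 were higher in blue (24.0%) and 35 higher in red (19.1%), shares below those of all models. On TPM the chromatin counts were 34 and 47. Among the chromatin models was a methyltransferase of the DOT1 class (588397), which methylates histone H3. It was at 165 and 226 FPKM in blue and 8.02 and 9.63 FPKM in red (difference 4.31).

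Beside light harvesting, lipases and the PAS list, the lists with the largest shares higher in red among those with more members higher in red were the cytoskeleton and flagella (45 of 115, 39.1%, against 16 higher in blue, median −0.16), autophagy (12 of 36, 33.3%, against 6), inorganic ion transport (55 of 186, 29.6%, against 45) and DNA replication and repair (44 of 156, 28.2%, against 27). Over all models the share was 23.7%. At least 2-fold differences were called in 12 cytoskeleton members higher in red and 4 higher in blue, and in 11 and 4 of DNA replication and repair. Without red replicate 1 the counts higher in red were 28 for DNA replication and repair and 7 for autophagy.

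The described models with the largest differences towards red, 15 by the naming rule, differed by 1.99 to 3.08 log2 units, against 4.37 to 8.32 for the 15 towards blue. Survival motor neuron-type protein (591808, overlapped on the opposite strand), a family known in animals for the assembly of splicing particles, was at 4.21 and 3.47 FPKM in blue, 40.1 and 39.3 FPKM in red, and 30.4 and 30.2 FPKM in dark (difference −3.08, adjusted p = 5.83e-08, limma). A methyltransferase (591027) was at 24.5 and 24.9 FPKM in blue, 145 and 149.6 FPKM in red, and 125 and 124 FPKM in dark (difference −2.53), and a folate-biopterin transporter (34886) at 7.92 and 7.10 FPKM in blue, 43.9 and 47.4 FPKM in red, and 45.5 and 43.8 FPKM in dark (difference −2.46). In these 3 the red libraries lay nearer to dark than the blue libraries did. The biopterin-dependent aromatic amino acid hydroxylase (585185), an enzyme class that includes the one making tyrosine from phenylalanine, lay apart in both colours, at 29.9 and 29.4 FPKM in blue, 155 and 150.5 FPKM in red, and 632 and 578 FPKM in dark (difference −2.33, adjusted p = 7.81e-08, limma). A saccharopine dehydrogenase (101331), of the lysine pathway, was at 322 and 319 FPKM in blue, 1051 and 1064 FPKM in red, and 2033 and 2025 FPKM in dark (difference −1.72). A C2 domain model predicted as a lipase (588568, overlapped on the same strand) was at 6.43 and 0.281 FPKM in blue and 15.1 and 12.5 FPKM in red, and its call (difference −2.26, adjusted p = 0.0129, limma) was lost with no filter on low values and without red replicate 1 or red replicate 2.

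Towards blue, the largest difference belonged to a model with a T-complex 11 domain (667321, scaffold 1:399006-402818), at 1799.8 and 1866 FPKM in blue, 4.42 and 5.03 FPKM in red, and 4.76 and 5.43 FPKM in dark (difference 8.32, SE 0.095, adjusted p = 1.59e-10, limma). Red and dark libraries of this model overlapped. An NAD-dependent epimerase (576408) with a description of the type that makes the head group of sulpholipid was at 1529.8 and 1866 FPKM in blue, 52.1 and 72.9 FPKM in red, and 18.1 and 17.1 FPKM in dark (difference 4.75). A glycoside hydrolase of family 16 (184193, overlapped on the opposite strand), a family that cuts beta-glucans, was at 225 and 265 FPKM in blue, 5.89 and 7.04 FPKM in red, and 5.79 and 6.95 FPKM in dark (difference 5.04). A pentatricopeptide repeat protein (602889), of a family that binds organelle RNA, stood at 94.3 and 122 FPKM in blue, 2.80 and 2.80 FPKM in red, and 3.74 and 3.77 FPKM in dark (difference 4.83). Of 146 redox proteins, 49 were higher in blue (33.6%) and 33 higher in red (22.6%), against 27.0% and 23.7% of all models. On TPM the counts were 43 and 38, and after median centring 41 and 35. Among them, an alkyl hydroperoxide reductase-type peroxiredoxin (579988), which removes peroxides, was at 175 and 205 FPKM in blue, 11.6 and 15.5 FPKM in red, and 26.7 and 28.6 FPKM in dark (difference 3.73).

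Of the 2764 models without a functional description 48.5% were called, and of the 6323 with one 51.6%, a difference that was not tested. Undescribed models were at least 2-fold higher in blue in 135 cases and in red in 138, described ones in 393 and 213 (127 and 186, and 365 and 306, on TPM). Hypothetical protein 632076 (overlapped on the same strand) was at 435 and 605 FPKM in blue, 1.28 and 1.07 FPKM in red, and 1.08 and 1.62 FPKM in dark (difference 7.89). Model 591805, also overlapped on the same strand, was at 33.3 and 35.3 FPKM in blue, 308 and 338 FPKM in red, and 266 and 286 FPKM in dark (difference −3.20). Model 183980 was at 97.3 and 148 FPKM in blue with red and dark libraries listed near 0, and 590064 at 20.1 and 16.4 FPKM in red with blue libraries listed near 0. Both overlap another model on the same strand, and a value near 0 can be a failed estimate, so no fold is given for them.

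Some models differed widely between pulsed and dark cells and by no more than 0.5 log2 between colours. A trigger factor (598404), a chaperone of new proteins, was at 82.9 and 83.8 FPKM in blue, 66.1 and 83.9 FPKM in red, and 8.25 and 8.51 FPKM in dark (blue minus red 0.16, 95% interval −0.10 to 0.41). S-adenosylmethionine synthetase (359190), which makes the methyl donor of the cell, was at 91.9 and 107 FPKM in blue, 86.9 and 90.9 FPKM in red, and 13.0 and 13.7 FPKM in dark (0.16, interval −0.06 to 0.37). Ribosomal protein S7e (609134) was at 416 and 460.4 FPKM in blue, 362 and 379 FPKM in red, and 58.4 and 65.3 FPKM in dark (0.24, interval 0.03 to 0.45). In these 3 the pulsed libraries of both colours stood well above dark. Among models lower after both pulses, a fatty acid elongase (572755) was at 8.21 and 7.95 FPKM in blue, 9.29 and 10.5 FPKM in red, and 104 and 105 FPKM in dark (−0.26, interval −0.48 to −0.05), and a DUF775 protein (598979) at 19.3 and 26.6 FPKM in blue, 21.9 and 24.6 FPKM in red, and 189 and 191 FPKM in dark (−0.03, interval −0.34 to 0.27). An actin family model (580844), of the filament proteins, was at 1.23 and 1.44 FPKM in blue, 0.890 and 1.29 FPKM in red, and 16.9 and 16.2 FPKM in dark. The elongase was called at an adjusted p of 0.0429 (limma) for its small difference between colours, so the interval and the call were both met.

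The 5 lists with the largest shares within the interval, beside the 41.2% of all models, were vesicle trafficking (57.5% of 240), splicing (56.2% of 258), autophagy (55.6% of 36), the proteasome and ubiquitin list (54.9% of 284) and cytosolic ribosomal proteins (51.3% of 115). Another 13 lists were above 41.2% as well, at between 41.7% and 50.8%. Without red replicate 1, 12 of the 36 autophagy models were within the interval instead of 20, and without blue replicate 1, 28 of the ribosomal proteins instead of 59. The share within the interval also varied with the level of a model, as given above, and the part of the level in these shares was not tested. Of 284 proteasome and ubiquitin models, 4 reached 2-fold on each side. Of the 284, 64 were higher in blue (22.5%) and 66 higher in red (23.2%), against 27.0% and 23.7% of all models. On TPM these counts were 43 and 80, and without red replicate 1, 30 were higher in blue. Of the 15 desaturases, by contrast, 2 were within the interval.

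The remaining lists showed small medians. Of all models, 27.0% were higher in blue and 23.7% higher in red, and on TPM the counts were 1970 and 2656. Splicing and RNA processing had 76 of 258 members higher in blue (29.5%) and 28 higher in red (10.9%), 56 and 28 of them robust. The splicing counts were 59 and 43 on TPM and 56 and 45 after median centring. Vesicle trafficking had 43 of 240 higher in blue (17.9%) and 57 higher in red (23.8%), and 31 and 77 on TPM. Coenzyme synthesis had 54 of 139 members higher in blue (38.8%) and 34 higher in red (24.5%), 46 and 33 of them robust. Its counts were 48 and 41 on TPM and 46 and 44 after median centring. Heat shock proteins and chaperones, which guard protein folding, had 41 of 158 higher in blue (25.9%) and 33 higher in red (20.9%), near the shares of all models. On TPM the chaperone counts were 36 and 48. Amino acid metabolism had 45 of 144 higher in blue (31.2%) and 27 higher in red (18.8%), but 39 and 40 on TPM. The pentose phosphate list, a source of NADPH, had 3 of 11 higher in blue (27.3%) and 2 higher in red (18.2%), but 2 and 3 after median centring. Within it transaldolase (635831), which moves a dihydroxyacetone unit between sugars, was at 235 and 249 FPKM in blue, 354 and 393 FPKM in red, and 463 and 441 FPKM in dark (difference −0.62, adjusted p = 4.16e-04, limma).

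**Figure D5:**
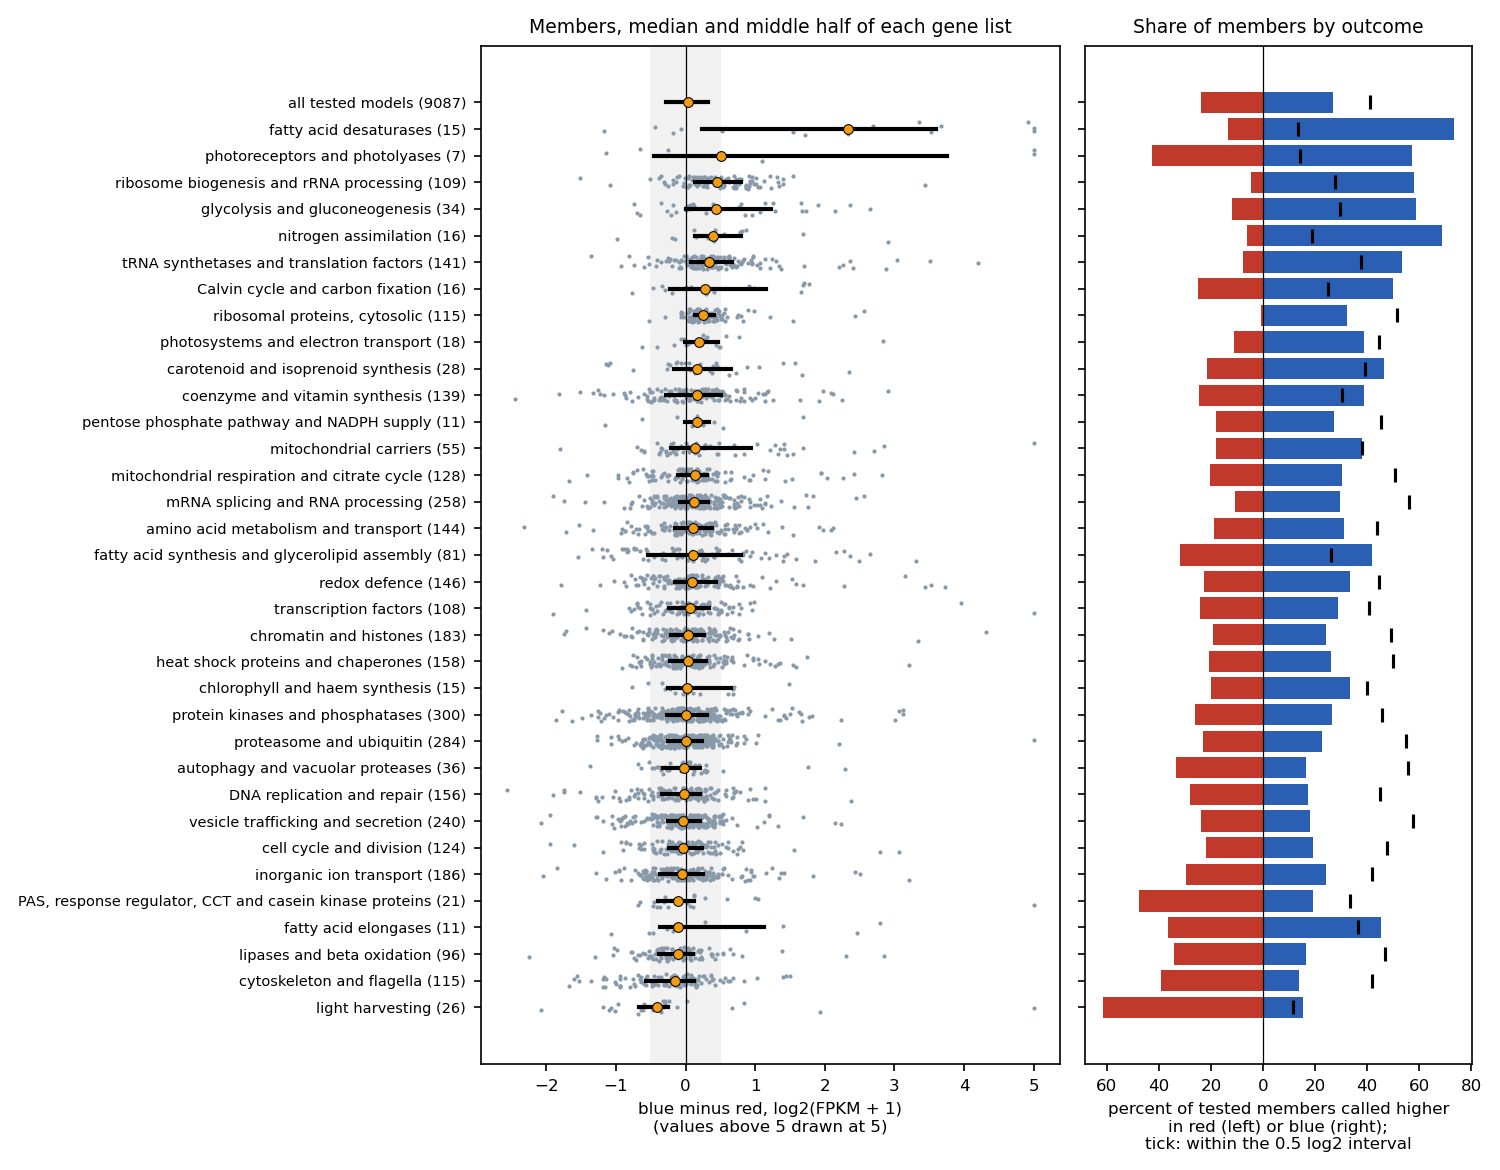
Gene lists ordered by their median blue minus red difference, with all 9087 tested models in the top row. Left, the difference of each member in log2(FPKM + 1), with the median (circle) and the middle 50% of members (bar); right, the percent of members called higher in blue (to the right) and in red (to the left), with a tick at the percent within the interval. The desaturases have the highest median and light harvesting the lowest.

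The position of models on the scaffolds, which the comparison did not use, was described through adjacent models that do not overlap. Across 2097 divergent pairs, whose starts face each other, the blue minus red differences correlated with a Spearman rho of 0.34, across 2400 tandem pairs with 0.26 and across 1895 convergent pairs with 0.12. Pairs share libraries and, at short distances, possibly reads, and they are not independent replicates. Divergent pairs with under 500 bases between them had a rho of 0.44 (1061 pairs). Where both models of a divergent pair were called, 477 of 626 had the same direction (76.2%). For tandem pairs it was 484 of 688 (70.3%), and for convergent pairs 322 of 531 (60.6%). With 500 or more bases between the models, the shares were 68.6% for divergent, 68.2% for tandem and 60.6% for convergent pairs. Examples, all with both models higher in blue, were chosen after their values were seen. Nitrate reductase (590448, 2.91) lies 881 bases from a major facilitator transporter (555711, 2.85) in divergent order, and 2 glutathione transferase models (552717, 3.52, and 552718, 3.15) lie 13 bases apart in the same order. Aureochrome 4 (7.55) and the Urb2/Npa2 model (577545, 3.43) are tandem neighbours 1273 bases apart. The PsbQ-like model (588861, 2.83) and a phosphoglycerate mutase (588856, 1.67) are divergent neighbours 415 bases apart.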

How the data were processed

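FPKM values for each library were deposited by the authors in 1 table, per the file headers. TPM values stand beside them in the deposited table and equal FPKM times 1 constant per library. The submitters' processing notes name FastQC, TopHat, Cufflinks, Cuffnorm and Cuffdiff without roles or versions. The library kit marks strand, per the labels' protocols, but the strand setting of the counting, aligner settings and assembly version were not given in the sources used here. Gene models, their scaffold coordinates and their descriptions are those in the deposited table, which names the annotation Nanoce1779_2. The authors' deposited log2 fold changes, p-values and q-values compare each pulse with dark, per the file headers, and were not used.

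The 10635 models with values were filtered to a mean of at least 1 FPKM (9087). A linear model on log2(FPKM + 1) with all 6 libraries (limma 3.58.1, R 4.3.3, variance moderated with a trend, 3 residual degrees of freedom) gave blue minus red, with Benjamini-Hochberg adjustment over all tested models. The procedure was tested on simulated data. The table holds no counts, so depth is unknown and no interval for counting error is given. Steps between low values gave relative fragments per FPKM, with dark replicate 1 set to 1, of 1.66 and 1.20 in blue, 1.69 and 1.33 in red, and 1.09 in dark replicate 2. Of the tested models, 1495 overlap another on the same strand and 1938 only one on the opposite strand, and reads could have been assigned to either.

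The 35 gene lists are word patterns on the deposited descriptions. The comparison and the lists were chosen with earlier results of these data known. One list, of organelle-encoded genes, had no member. Models were named by rule: the 15 described and 5 undescribed models with the largest difference in each direction (called, groups not overlapping, at least 10 FPKM in the higher group), the 3 members of lowest p and the 1 of lowest p in the opposite direction per list, all photoreceptors, and the 5 models within the interval with the largest change of both pulses against dark in each direction. Other members of the desaturase, light harvesting, elongase and nitrogen lists were named to complete them, with their values known. The rule names 146 models, of which the text gives those that carry each group. One of them is not reported here. Alternatives were TPM, quantile normalization, median centring, pseudocounts of 0.1 and 5, no filter, a filter at 10 FPKM, only models that overlap no other, only blue and red libraries, no variance trend, a replicate block, an interval of 1 log2 and leaving out each library.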

Additional observations from a re-analysis of the deposited data

How the results depend on the processing

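Limited to models that overlap no other, 2907 of the 4606 calls were left, 1526 higher in blue and 1381 higher in red, with 341 and 220 at least 2-fold and 2321 models within the interval, since fewer models were counted. A pseudocount of 5 left 204 models at least 2-fold higher in red. With an interval of 1 log2, 7447 models lay within it. Of the lists, 43 ribosome biogenesis and 46 DNA replication and repair models were called at a mean of at least 10 FPKM, where fewer were tested, against 68 and 71 in the fit reported, and 8 of the PAS list against 14 with no filter on low values, for which the cause was not tested. Leaving out 1 library gave 3412 (without red replicate 1) to 4739 calls (without blue replicate 1). By list, leaving out 1 library gave 21 to 79 calls for cytosolic ribosomal proteins (38 with all libraries), 46 to 76 for DNA replication and repair, 77 to 126 for the proteasome and ubiquitin list (130), 50 to 84 for chromatin (79), 11 to 21 for autophagy (18) and 8 to 12 for the PAS list. The replicate numbers were not shown to pair libraries: same-numbered deviations correlated with 0.340 between blue and red, 0.0915 between blue and dark and −0.0818 between red and dark. The titles also carry a library number, and that of red replicate 1 differs from that of blue and dark replicate 1. Pairing here follows the replicate number alone, so it may join libraries that do not belong together. With the replicate number as a block, 4858 models were called, 2603 higher in blue and 2255 higher in red, and 61 ribosomal proteins. Of the 146 named models, 138 were called. Over 2322 values under the alternatives, 2286 were scored as unchanged and 26 as moved by more than their spread. A further 10 were scored as a lost call (aureochrome 3 and 588568) and 0 as reversed. Models named as within the interval, among them a called fatty acid elongase, were scored only by the size of their shift. Lost calls or changes of sign in those models are therefore not in these counts. The 2 libraries of a group and the unknown depth limit what small differences can be shown.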
